A study of Mus musculus with 8 samples.

Results

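The keratin windows are 4 stretches of the mouse genome around 7 keratin genes, and they hold 27 of the 22731 H3K27ac peaks of the series. They were chosen by position in mm9, as every peak that overlaps 1 of 4 stretches. The Krt80 and Krt7 window runs from 101.13 to 101.28 Mb and the Krt8 and Krt18 window from 101.80 to 101.88 Mb on chromosome 15. The Krt20 and Krt23 window runs from 99.25 to 99.38 Mb and the window of Krt19 and its neighbours from 99.96 to 100.06 Mb on chromosome 11. These windows hold 11, 7, 2 and 7 peaks. The choice was made with the comparison of knockout and control organoids already known, so the differences between these groups are given as a description and no p-values are given for them. The authors' peak table pairs peaks with no genes, so a window is named for its keratins and no single peak is assigned to a gene. In RefSeq's gene order, the protein-coding neighbours of Krt80 are Smim41 and Krt7, and Krt19 lies between Krt15 and Krt9, so other genes can share a window's signal.

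H3K27ac, the acetylation of lysine 27 on histone H3, marks promoters and enhancers in use. It was profiled by CUT&RUN, in which an antibody-guided nuclease releases the DNA that carries a mark, in Gata6 knockout AKP mouse colon cancer organoids (genotype Gata6KO_AKP, 3 libraries) and in control AKP organoids without that knockout (genotype AKP, 3 libraries). Both groups carry the AKP background, which the labels do not spell out, and both are labelled with C57Bl6 recipient mice. The labels give neither the method of the Gata6 deletion, nor the number of clones, nor whether replicates were separate cultures, so the spread between libraries may be technical. Reads in peaks numbered 5738480, 5495414 and 6196455 in knockout replicates 1 to 3 and 5766379, 5141856 and 7026388 in control replicates 1 to 3. The series also has 1 H3K4me3 and 1 IgG library from control organoids, which were not analysed here, so no background was subtracted. The peak of Gata6 itself was not analysed here and did not check the labels. Organoids are bulk samples, in which fewer cells with a mark and less of the mark per cell cannot be told apart.

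Keratins are the intermediate filament proteins of epithelia, and a filament is built from pairs of 1 type I and 1 type II keratin. Krt7, Krt8 and Krt80 are type II genes on chromosome 15, and Krt19, Krt20 and Krt23 are type I genes on chromosome 11. Krt18 is the type I exception that lies beside its partner Krt8 in the type II cluster. Krt8 and Krt18 are the founding pair of simple epithelia and rise in injured epithelium, Krt19 is also found along the gut lining, and Krt20 marks differentiated cells of the intestinal surface. Krt7 belongs to ductal and glandular epithelia, and in human pathology a tumour with KRT20 and without KRT7 points to the colon. GATA6 is a zinc finger transcription factor of endodermal epithelia that binds DNA with a GATA core.

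Promoters are printed for keratins named in the windows whose sums lay lower in the knockout, and a link to the Gata6 deletion was not tested. RefSeq promoters (GRCm38.p6) were found for 5 of the 7 keratins: Krt7, Krt8, Krt18, Krt20 and Krt23. These coordinates belong to another assembly than the peaks and were not laid over them, so whether a peak covers a promoter was not tested. The direction of a window's sum is therefore not that of each keratin in it. The Krt80 and Krt7 window, for one, also held peaks that were level or called higher. The 250 bases before the transcript start are printed from 5′ to 3′ on the gene's own strand, with GATA, or TATC for GATA on the other strand, in capitals. They are chr15:101412153-101412402 on the plus strand for Krt7, chr15:102004343-102004592 on the minus strand for Krt8 and chr15:102027966-102028215 on the plus strand for Krt18.
Krt7: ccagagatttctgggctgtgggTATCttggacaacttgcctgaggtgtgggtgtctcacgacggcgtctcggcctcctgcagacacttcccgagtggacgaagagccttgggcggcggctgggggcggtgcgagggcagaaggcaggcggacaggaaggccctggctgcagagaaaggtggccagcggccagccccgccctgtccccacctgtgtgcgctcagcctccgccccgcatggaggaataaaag
Krt8: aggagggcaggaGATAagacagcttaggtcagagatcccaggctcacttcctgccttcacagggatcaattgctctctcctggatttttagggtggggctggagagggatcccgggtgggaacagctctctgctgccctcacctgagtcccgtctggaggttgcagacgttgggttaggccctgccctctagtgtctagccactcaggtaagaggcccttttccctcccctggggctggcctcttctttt
Krt18: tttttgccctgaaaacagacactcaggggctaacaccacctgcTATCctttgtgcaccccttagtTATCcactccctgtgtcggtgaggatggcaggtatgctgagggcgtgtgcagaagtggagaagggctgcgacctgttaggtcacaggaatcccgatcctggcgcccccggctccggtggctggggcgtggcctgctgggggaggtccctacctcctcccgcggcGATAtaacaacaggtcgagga
The Krt7 stretch holds 1 GATA, the Krt8 stretch 1 and the Krt18 stretch 3, counting both strands. Krt20 and Krt23, whose window summed higher in the knockout, hold 1 each. That window's 2 peaks, from 99353138 to 99376732, were not assigned to either gene, so a rise at Krt20 itself was not shown. A GATA of any kind stands in 53.6% of the 32851 promoter stretches of this length, so its presence is ordinary. The longer AGATAA, which contains a GATA, stands in Krt8 at position -239 and in Krt20 on the other strand at position -223 (first base, counted back from the start), against 9.99% of all stretches. TGATAA, which also contains a GATA and stands in 7.94% of stretches, was found in none of the 5, and neither were TGACTCA and TGAGTCA, which are the same site read on either strand (4.46% of stretches). TATAAA, the core promoter box, stands in Krt20 at position -29 and in 12.4% of all stretches. A match is a run of letters and no evidence of binding.

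The 4 windows split by chromosome in their direction. Acetylation over the Krt80 and Krt7 window summed to 863, 847 and 886 CPM in the 3 knockout libraries, against 1087, 1085 and 1115 CPM in the 3 control libraries (CPM is reads per 1000000 reads in peaks, scaled by TMM, edgeR's normalization). Every knockout library lay below every control library, and the mean of 865 ± 19.9 CPM was 0.790 times the control mean of 1096 ± 17.0 CPM (SD, n = 3 each). Over the Krt8 and Krt18 window the sums were 374, 373 and 388 CPM in knockout and 416, 426 and 438 CPM in control libraries. These groups also lay apart, with a ratio of 0.887. Over the Krt20 and Krt23 window the sums were 70.3, 80.2 and 77.0 CPM in knockout and 55.7, 54.5 and 49.6 CPM in control libraries, and over the Krt19 window 646, 608 and 619 CPM in knockout and 476, 514 and 512 CPM in control libraries. Both chromosome 11 windows thus lay higher in each knockout library than in any control library, with ratios of 1.42 and 1.25.

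**Figure D1:**
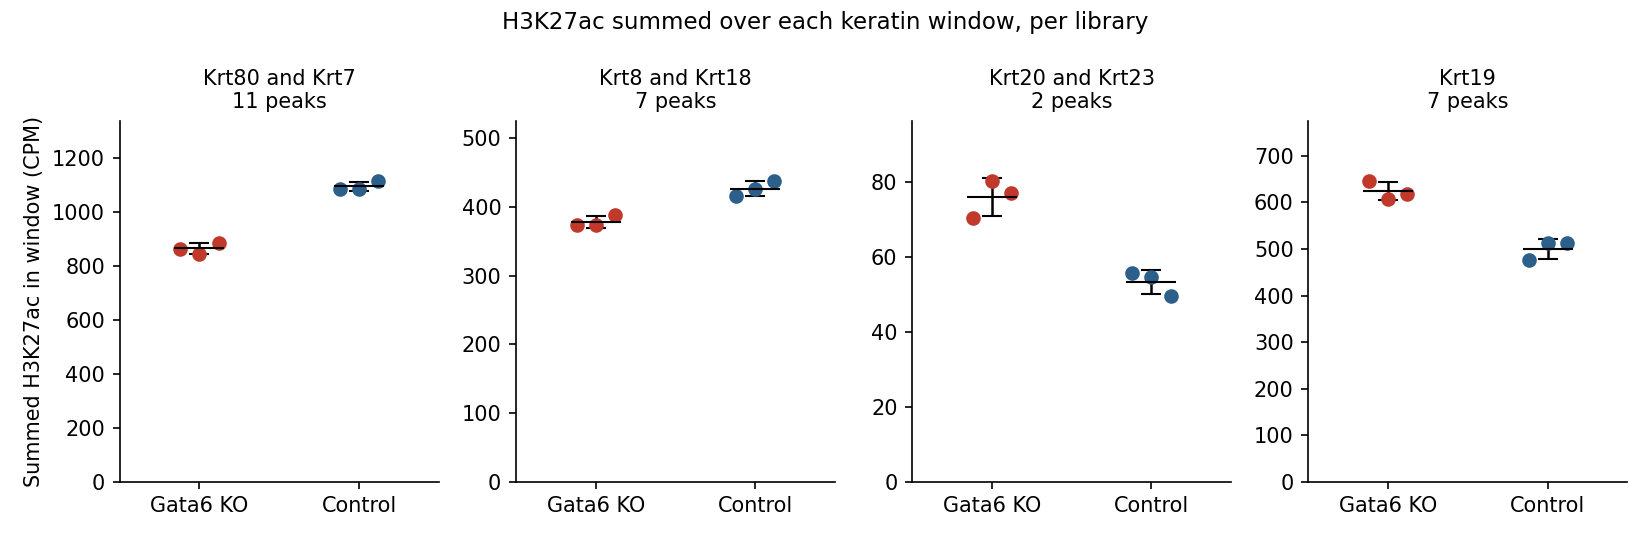
H3K27ac summed over the peaks of each keratin window (CPM, y axis from 0, a separate scale per panel) in Gata6 knockout and control libraries; points are libraries and bars are the mean ± SD of 3. The knockout libraries lie below the control libraries in both chromosome 15 windows and above them in both chromosome 11 windows.

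A ratio of 2 windows within a library needs no scaling between libraries. The Krt19 sum was 1.73, 1.63 and 1.59 times the Krt8 and Krt18 sum in knockout libraries and 1.146, 1.21 and 1.17 times in control libraries. The Krt80 and Krt7 sum was 2.31, 2.27 and 2.28 times the Krt8 and Krt18 sum in knockout libraries, against 2.62, 2.55 and 2.55 times in control libraries. The groups did not overlap in either ratio, and a single scaling factor per library cannot change that. The windows were chosen with this contrast known, and how often ratios of other windows lie apart was not tested. The Krt20 and Krt23 sum was 0.188, 0.215 and 0.198 times the Krt8 and Krt18 sum in knockout libraries and 0.134, 0.128 and 0.113 times in control libraries.

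Of the 27 peaks, 9 were called lower in the knockout, 4 were called higher and 14 were not called (edgeR's quasi-likelihood test over all 22731 peaks, Benjamini-Hochberg adjusted p under 0.05). Over all peaks, 10.2% were called lower, 11.6% higher and 21.8% either way. These shares stand beside the counts as background only, since the windows were chosen with this contrast known. The median log2 fold change was -0.03 over the 27 peaks and -0.01 over all peaks. The 2 groups of libraries did not overlap at 15 of the 27 peaks, 8 with the knockout below and 7 with it above. Over all peaks the groups did not overlap at 33.8%, with the knockout below at 16.2% and above at 17.5%. All 27 peaks passed the filter on low counts, which removed no peak of the table.

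**Figure D2:**
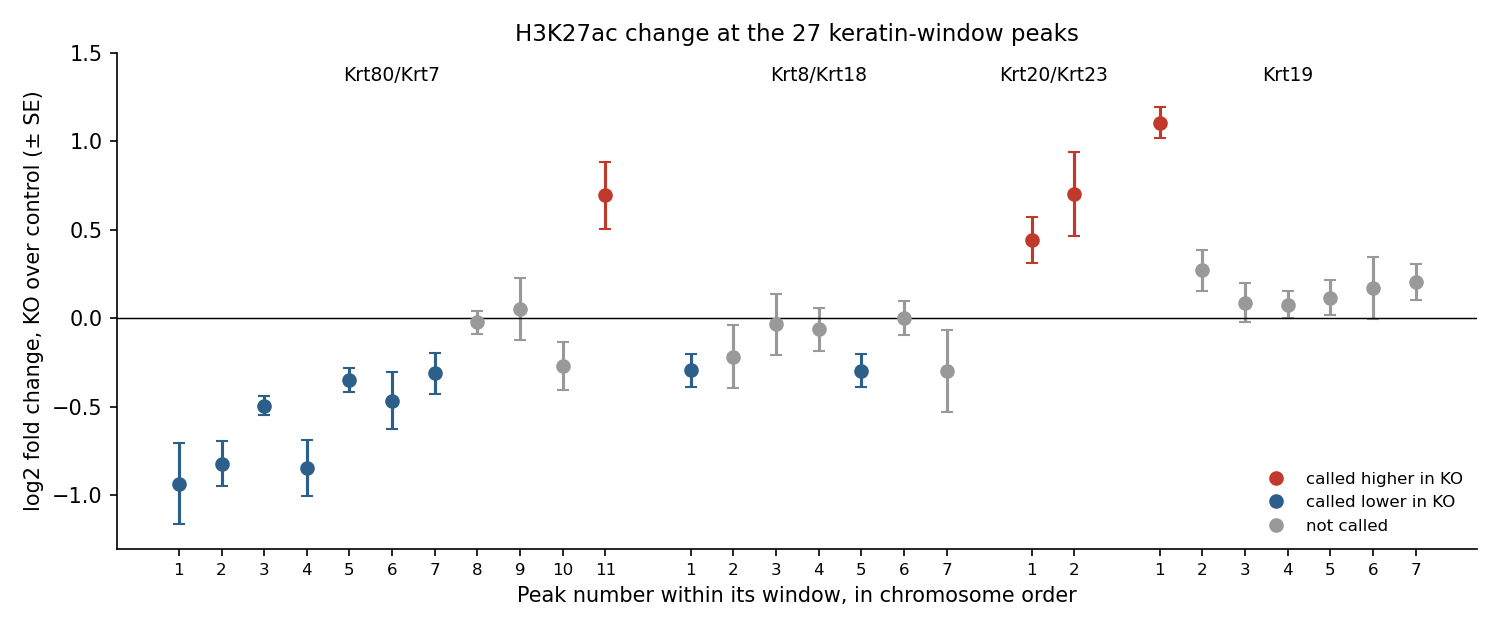
Log2 fold change of each of the 27 peaks, knockout over control, with its standard error, in chromosome order within each window; colour marks peaks called higher, called lower or not called in the fit over all peaks. The first 7 peaks of the Krt80 and Krt7 window lie below 0 and its last lies at 0.70, and the first peak of the Krt19 window lies at 1.11, above the other 6.

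Within the Krt80 and Krt7 window, the peaks called lower were all on one side. Its first 7 peaks in chromosome order, from 101146833 to 101221209, were all called lower, and the 4 that follow after a gap of 19433 bp, from 101240643 to 101266295, were not. The first 7 summed to 590.2, 545 and 605 CPM in knockout libraries and 801, 800.0 and 832 CPM in control libraries, a ratio of 0.715. The last 4 summed to 273, 301 and 281 CPM in knockout libraries and 286, 285 and 283 CPM in control libraries, a ratio of 1.001. The first 7 peaks held 68.4%, 64.4% and 68.3% of the window's signal in knockout libraries and 73.7%, 73.8% and 74.6% in control libraries, a within-library share that did not overlap between the groups. The split was drawn after the calls were seen, so these sums describe it and do not test it.

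The peak that holds the most signal in the window was the third, from 101155812 to 101170844. It measured 264, 249.6 and 267 CPM in knockout libraries and 360, 365 and 373 CPM in control libraries, 0.711 times the control level (log2 fold change -0.49 ± 0.05, SE). It was 15033 bp wide, wider than 98.3% of all peaks, and its mean CPM per kb over the 6 libraries ranked above 98.8% of them. The fifth peak, from 101190201 to 101205180, was nearly as wide at 14980 bp. Its 168, 159 and 184 CPM in knockout libraries lay below the 217, 201 and 232 CPM of control libraries, with a log2 fold change of -0.35 ± 0.07. These were the 2 widest of the 27 peaks.

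Among the 5 narrower peaks of the run, the first, the second and the fourth fell further than either wide peak. The first, from 101146833 to 101148500, held 10.1, 12.3 and 13.8 CPM in knockout libraries and 18.1, 24.1 and 26.9 CPM in control libraries, with a log2 fold change of -0.93 ± 0.23 on 58 to 188 reads per library. The second, from 101149119 to 101153581, held 41.8, 32.5 and 33.4 CPM in knockout libraries against 55.7, 66.6 and 67.6 CPM in control libraries, a log2 fold change of -0.82 ± 0.13. They stood at 0.524 and 0.566 times the control level. The fourth, from 101180463 to 101184259, held 23.9, 20.0 and 23.7 CPM in knockout libraries and 49.7, 43.4 and 28.9 CPM in control libraries. Its control libraries were the most scattered of the window relative to their mean, and its log2 fold change was -0.84 ± 0.16. The sixth, from 101211021 to 101215036, held 28.03, 19.6 and 27.1 CPM in knockout libraries against 36.5, 32.7 and 34.1 CPM in control libraries (log2 fold change -0.47 ± 0.16). The seventh, from 101216035 to 101221209, held 54.7, 52.2 and 55.5 CPM in knockout libraries against 64.0, 67.6 and 69.6 CPM in control libraries (-0.31 ± 0.12). The call of the seventh was lost when any of the 6 libraries was left out and, at -0.29 with all libraries kept, with offsets that follow the mean count. That of the sixth was lost without knockout replicate 2 or control replicate 1, at log2 fold changes of -0.32 and -0.42.

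Beyond the gap, the sum of the 4 peaks was level, but it combined peaks that moved in opposite directions. The eighth peak, from 101240643 to 101252810 and 12168 bp wide, held 179, 203 and 197 CPM in knockout libraries and 201, 186 and 199.6 CPM in control libraries. These values overlap, and its log2 fold change was -0.02 ± 0.07. Peaks 9 and 10 had log2 fold changes of 0.05 ± 0.17 and -0.27 ± 0.14, and neither was called. Peak 10, with 39.8 CPM in knockout and 48.1 CPM in control libraries on average, moved nearly as far as the seventh (-0.31 ± 0.12). The border drawn by the calls is thus not sharp. The last peak, from 101264418 to 101266295, went the other way and rose, with 28.6, 23.6 and 28.7 CPM in knockout libraries and 16.7, 16.6 and 16.6 CPM in control libraries. Its log2 fold change was 0.70 ± 0.19, so 1 window held calls of both directions. The peak nearest to the window on its other side, 3.0 kb before it, had 32.9 CPM in knockout and 37.4 CPM in control libraries on average and was not called.

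**Figure D3:**
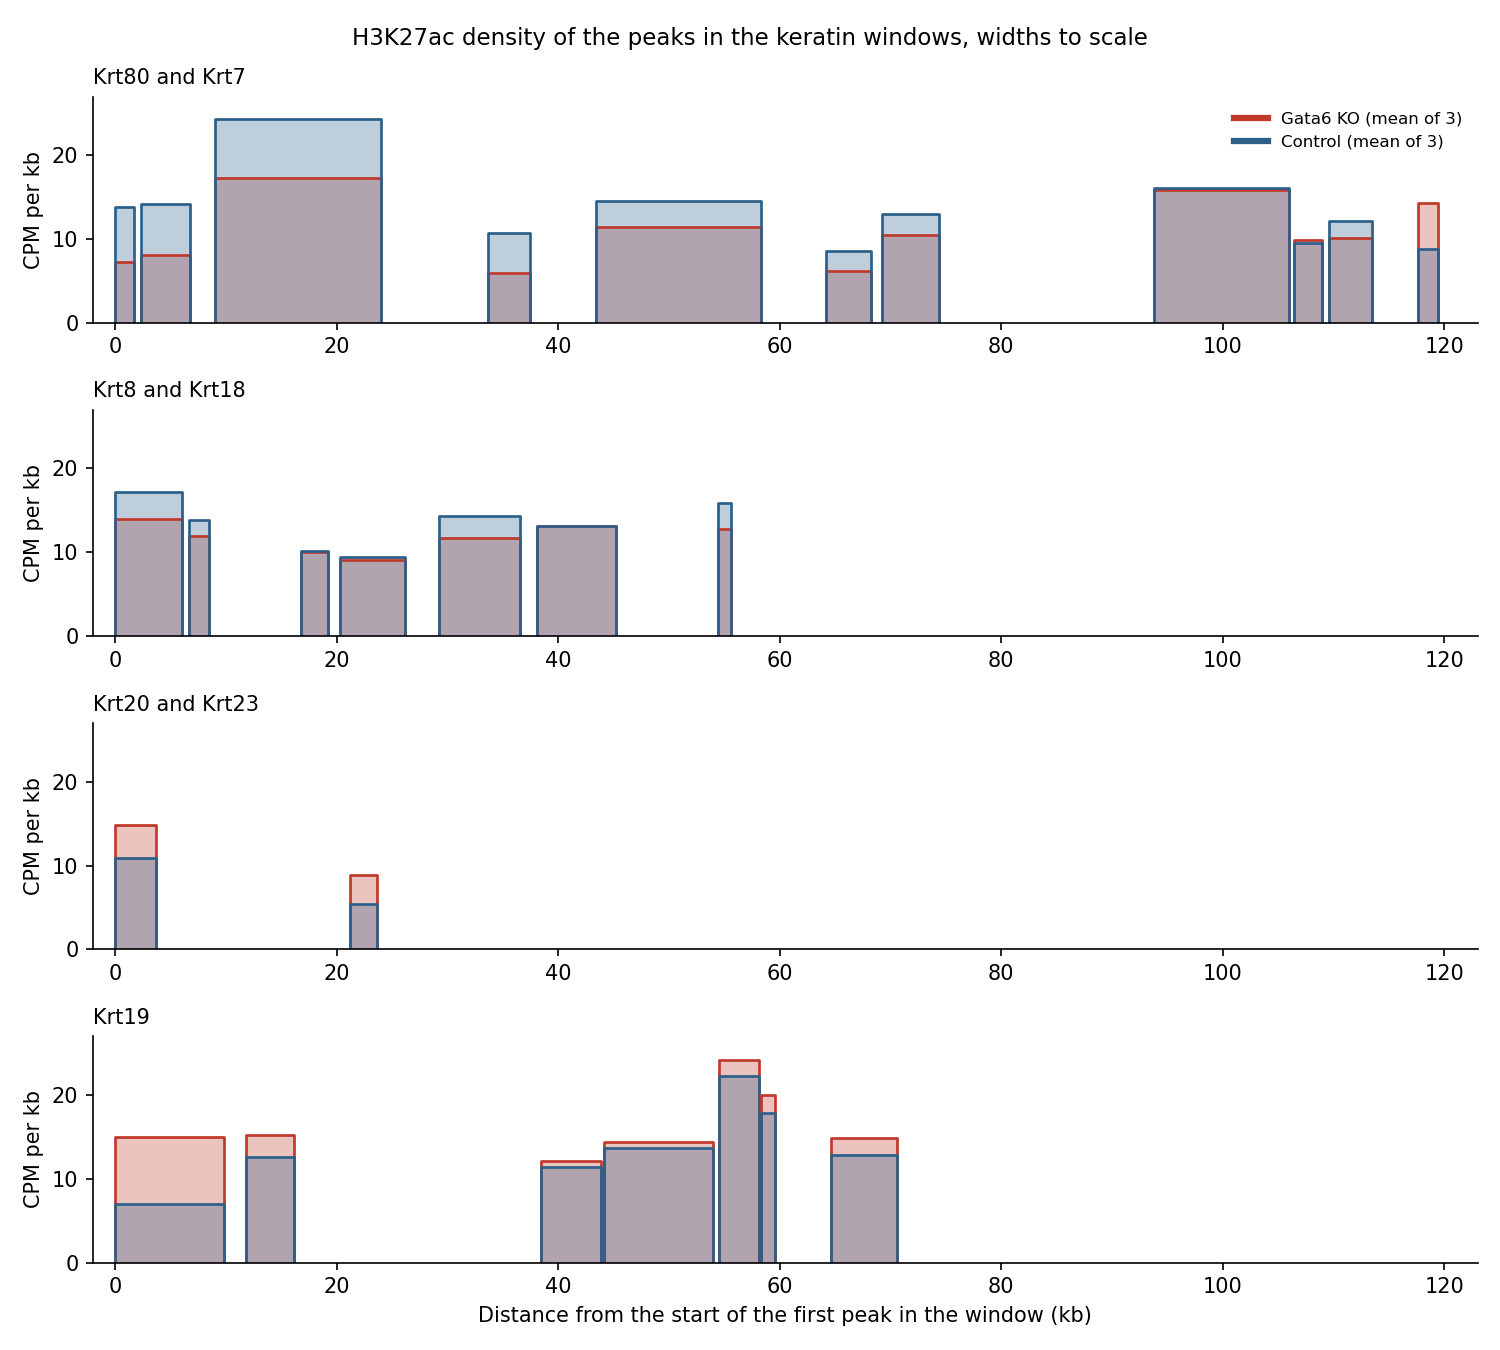
Mean H3K27ac density (CPM per kb of peak, y axis) of the peaks in each window against distance from the start of the window's first peak (kb, x axis); each box is 1 peak at its true width, red for knockout and blue for control. The first 7 boxes of the Krt80 and Krt7 window are lower in the knockout and the eighth is level. The first box of the Krt19 window stands at 15.03 CPM per kb in knockout against 6.97 in control.

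The Krt8 and Krt18 window, which lies on the same chromosome, differed less. Its 7 peaks had log2 fold changes of -0.30 to 0.00, and 2 of the 7 were called lower. The peak from 101833110 to 101840437, with the highest level of the window, held 89.1, 87.8 and 79.5 CPM in knockout libraries and 102, 107 and 106 CPM in control libraries (log2 fold change -0.30 ± 0.09). The peak from 101803850 to 101809852, with the highest density, held 81.3, 78.0 and 92.7 CPM in knockout libraries and 91.5, 109 and 108 CPM in control libraries (-0.29 ± 0.09). Control replicate 1 lay below knockout replicate 3 here, so the groups overlapped. Both calls depended on single libraries: the first was lost without knockout replicate 3, at -0.24, and the second without knockout replicate 2, control replicate 2 or control replicate 3, at -0.24 to -0.25. The peak that follows the first of these, from 101841950 to 101849065, had 88.4, 97.6 and 94.6 CPM in knockout libraries and 88.0, 91.5 and 100.1 CPM in control libraries, a log2 fold change of 0.00 ± 0.09. The other 4 peaks, with 15.3 to 53.5 CPM on average in knockout and 18.9 to 55.7 CPM in control libraries, overlapped between groups.

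On chromosome 11, the Krt20 and Krt23 window was the least acetylated. Peaks covered 4.68% of it, against 39.8% to 46.5% of the other 3 windows, and it held no peak before 99353138. Both of its peaks were called higher in the knockout. The peak from 99353138 to 99356861 held 51.2, 59.9 and 54.2 CPM in knockout libraries and 44.9, 40.9 and 35.8 CPM in control libraries, with a log2 fold change of 0.45 ± 0.13. The peak from 99374378 to 99376732 held 19.2, 20.3 and 22.8 CPM in knockout libraries and 10.8, 13.6 and 13.7 CPM in control libraries, a log2 fold change of 0.70 ± 0.24 on 62 to 142 reads per library. The groups lay apart at both peaks. The call of the first was lost without knockout replicate 2 or control replicate 3, at 0.38 and 0.36. That of the second was lost without knockout replicate 3 or control replicate 1, at 0.63 and 0.60, and, at 0.58, with offsets that follow the mean count.

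In the Krt19 window, 1 of 7 peaks carried most of the difference. The peak from 99960381 to 99970211, the first of the window and 9831 bp wide, held 149.9, 143 and 151 CPM in knockout libraries and 61.6, 69.7 and 74.2 CPM in control libraries. This was a 2.15-fold rise, with a log2 fold change of 1.11 ± 0.09, the largest of the 27 peaks and above the 95th percentile of all peaks, 0.73. It held 23.2%, 23.4% and 24.4% of the window's signal in knockout libraries and 12.9%, 13.6% and 14.5% in control libraries. Without it, the other 6 peaks summed to 496, 465 and 468 CPM in knockout libraries and 415, 444 and 438 CPM in control libraries, a ratio of 1.10 in place of 1.25. The peak lies at the window's edge, and its nearest neighbour outside, from 99948740 to 99951265 and 8.7 kb from the window's bound, was also called higher, with 40.1 CPM in knockout and 21.7 CPM in control libraries on average (log2 fold change 0.88 ± 0.16).

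**Figure D4:**
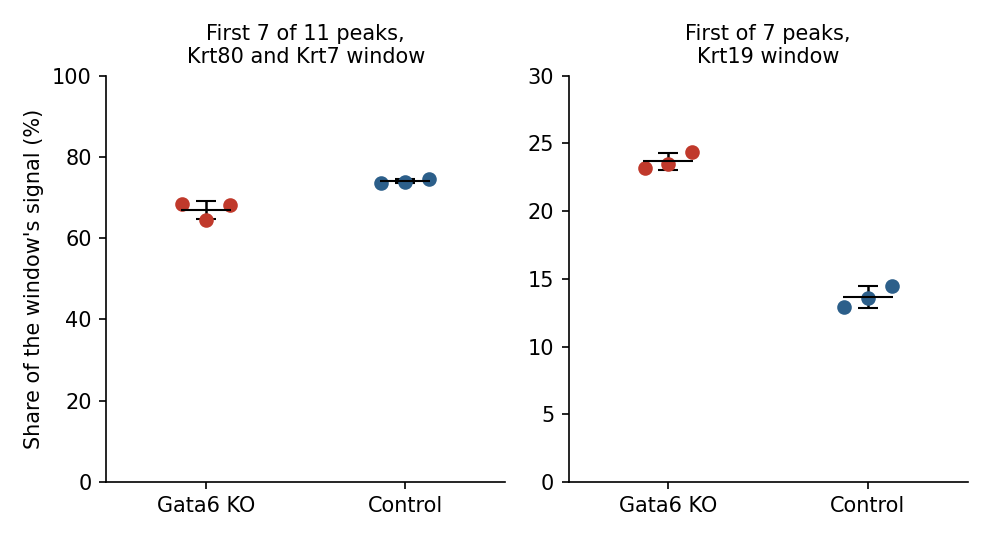
Share of a window's summed signal (%, y axes from 0 on separate scales) held by the first 7 peaks of the Krt80 and Krt7 window and by the first peak of the Krt19 window in knockout and control libraries. Points are libraries and bars the mean ± SD of 3. The Krt80 and Krt7 share is 67.0% in knockout and 74.0% in control libraries, and the Krt19 share is 23.7% in knockout and 13.7% in control libraries.

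The other 6 peaks of the Krt19 window were not called, and their log2 fold changes of 0.08 to 0.27 were all positive. The peak of highest level, from 100004506 to 100014333, held 147, 145 and 134 CPM in knockout libraries and 135, 136 and 132 CPM in control libraries, which overlap (0.08 ± 0.08). The peak of highest density, from 100014880 to 100018473, held 86.4, 83.8 and 90.1 CPM in knockout libraries and 73.1, 83.7 and 83.3 CPM in control libraries, a log2 fold change of 0.12 ± 0.10. The knockout libraries lay above the control libraries there by a margin smaller than the spread within either group. With 24.1 CPM per kb in knockout and 22.3 CPM per kb in control libraries, it was denser than 99.5% of all peaks.

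Density per kb of peak orders the windows differently in the 2 genotypes. In knockout organoids the Krt19 window was densest, at 16.0, 15.1 and 15.3 CPM per kb. The Krt20 and Krt23 window followed at 11.6, 13.2 and 12.7 CPM per kb, the Krt80 and Krt7 window at 12.4, 12.1 and 12.7, and the Krt8 and Krt18 window at 11.7, 11.7 and 12.2, and each of these overlapped the next. In control organoids the Krt80 and Krt7 window came first, at 15.6, 15.6 and 16.0 CPM per kb, followed by Krt8 and Krt18 at 13.1, 13.4 and 13.7, Krt19 at 11.8, 12.7 and 12.7, and Krt20 and Krt23 at 9.16, 8.97 and 8.15. No window of the control order overlapped the next. That order counts the first peak of the Krt19 window, at 6.97 CPM per kb in control and 15.03 in knockout libraries. The other 6 peaks of that window were each denser in control libraries, at 11.4 to 22.3 CPM per kb. The place of Krt19 in the control order thus rests partly on that first peak. The median density of all peaks, over the 6 libraries, was 10.7 CPM per kb, and 20 of the 27 keratin peaks reached it. The keratin peaks were also wide, with a median of 4361 bp against 2690 bp over all peaks. These are levels of peaks called by the authors, so they say nothing of the DNA between them.

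The peaks around the windows had medians near 0, with calls in both directions. The 48 peaks within 1 Mb of the Krt80 and Krt7 window and outside all 4 windows had a median log2 fold change of 0.08, against -0.35 inside, with 3 called lower and 7 higher. Around the Krt8 and Krt18 window, 34 peaks had a median of 0.00 against -0.22 inside, with 2 called lower and 4 higher. Around the Krt20 and Krt23 window, 39 peaks had a median of 0.02 against 0.58 inside, with 3 called lower and 5 higher, and around the Krt19 window 45 peaks had a median of -0.05 against 0.17 inside, with 6 called lower and 3 higher. The chromosome-wide medians were -0.01 on chromosome 15 and 0.01 on chromosome 11. Called peaks were 10 of 48, 6 of 34, 8 of 39 and 9 of 45 in these flanks, beside 21.8% of all peaks. Flanks of windows on the same chromosome share peaks.

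Outside the windows, the 3 peaks whose log2 CPM over the 6 libraries was most like the Krt80 and Krt7 sum lay on chromosomes 8, 5 and 16. The first, from 97623121 to 97631721 on chromosome 8, had a Pearson's r of 0.9985 with 51.2, 46.1 and 53.2 CPM in knockout libraries and 107, 107 and 112 CPM in control libraries. The others, from 105912281 to 105915128 on chromosome 5 and from 90829480 to 90832452 on chromosome 16, had r of 0.9981 and 0.9977. They were picked as the highest of all peaks, over 6 libraries that fall into 2 groups, and a separation of these groups alone gives a high r.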

How the data were processed

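Per the submitters' processing notes, the genome build was mm9 and the tools were bedtools, SEACR, SAMtools, Picard and Bowtie, with no roles or versions given. The file deposited by the authors holds unnormalized read counts in 1 common set of peaks for the 6 H3K27ac libraries, per the file headers. How peaks were merged and how reads were counted is not given in the sources used here. Between 82.8% and 88.9% of the counts were even, as when both mates of a pair are counted, which makes the number of independent fragments smaller than the counts.

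The windows, the lists and the tests were chosen with earlier results of these data known. edgeR 4.0.16 in R 4.3.3 was fitted to all 22731 peaks with group as the only term (TMM, quasi-likelihood, two-sided, Benjamini-Hochberg). Standard errors came from the F statistic. The script was tested on simulated data. Window sums are sums of CPM. Named in full were all called keratin peaks and the peaks of highest level and highest density in each window; a few others were added after their values were seen. Replicates of the same number are not said to be paired. Deviations from group means correlated at 0.00595 to 0.0662 between same numbers and at -0.0487 to 0.0403 otherwise. Values this weak neither show pairing nor exclude it. No library repeated another: on halved counts, libraries of a group differed with a chi-square of 1.53 to 1.84 per degree of freedom. The labels give no batch.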

Additional observations from a re-analysis of the deposited data

How the results depend on the processing

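The direction of all 4 window sums and of the 15 keratin peaks that were called, or had the highest level or density of their window, held with DESeq2 size factors, total reads, TMM without chromosome 5, trended offsets, halved counts and 1 library left out. The sums also kept it with peaks wholly inside the window, without the peak of highest level and relative to the rest of the chromosome. The 15 peaks also kept it with DESeq2 1.42.0, no filter, a stricter filter (at least 50 reads in 3 libraries) and the replicate number as a block, which were not run on sums. Of 225 values for the 15 peaks, 207 stayed on their side of the threshold and 18 lost their call. The log2 ratio of the Krt80 and Krt7 sum was -0.34, -0.30 with trended offsets and -0.27 without its peak of highest level. Without that peak the others were -0.13 for Krt8 and Krt18 (from -0.17), 0.71 for Krt20 and Krt23 (from 0.51) and 0.40 for Krt19 (from 0.32), since the remaining peaks moved by other amounts. With a library left out the 4 ratios were -0.36 to -0.33, -0.19 to -0.15, 0.46 to 0.56 and 0.29 to 0.34. Keratin peaks called lower then numbered 6 to 8 in place of 9, and those called higher 3 to 5 in place of 4. Not all of these were calls of the main fit. Without control replicate 3, 7 of the 8 called lower were. Of those called higher, 3 of 4 were without knockout replicate 3 and 4 of 5 without control replicate 2. With trended offsets, 3 of the 4 called higher were shared with the main fit. With the number as a replicate block, 9 were called lower and 4 higher, as without it, and the same peaks were called. Deviations of same-numbered libraries correlated only weakly, and some libraries were closer to another number than to their own. Over all peaks, the alternatives moved no count by more than 1.5 times.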
